A study of Mus musculus with 6 samples.

Results

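The genes described here are 10 regulators, factors and target genes of the Hippo pathway, taken by gene symbol from a table of 16331 array rows. Each of the 10 symbols matched 1 row, and the row is named by its Entrez gene ID. Ptpn14 (19250), Amotl2 (56332), Wwc1 (211652), Lats1 (16798) and Lats2 (50523) restrain YAP. Yap1 (22601), Wwtr1 (97064) and Tead1 (21676) are the transcription factors and coactivators. Ccn1 (16007) and Ccn2 (14219) are target genes. The genes were selected on their roles and on their measured differences between cyclosporin A (CsA) and DMSO on these same arrays. Their differences are therefore given as a description, with no p-value. Tests are given for other genes of the pathway, listed by role. Those lists too were drawn up with earlier results of these data known, so their counts and adjusted p-values are not independent of them.

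The Hippo pathway is a kinase cascade that limits growth when cells are crowded, attached to neighbours or under low tension. Its last kinases, LATS1 and LATS2, phosphorylate the coactivators YAP and TAZ (the product of Wwtr1), which are then held in the cytoplasm or degraded. Unphosphorylated YAP and TAZ enter the nucleus and bind TEAD proteins on DNA, and the genes switched on include several of the pathway's own brakes. In liver the pathway restrains organ size and keeps hepatocytes from taking on features of bile duct cells. Much of this control acts on protein location and phosphorylation, which a transcript array does not measure.

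The cells were primary hepatocytes of male C57Bl6 mice, kept between 2 collagen layers in serum-free medium with insulin, glucagon and hydrocortisone. The CsA group had 3 arrays of cultures exposed for 48 hours to 10 µM CsA, which binds cyclophilins, blocks calcineurin and is used against transplant rejection. The DMSO group had 3 arrays of cultures exposed for 48 hours to 0.5% DMSO, the vehicle. Per the labels, hepatocytes came from 3 animals in separate experiments, and the sample titles carry a single prefix in the CsA group but a different prefix for each DMSO array, with no reason given, so that the 3 CsA arrays stand for 3 animals rests on the protocol text. The labels give neither the age of the mice nor whether the CsA cultures also held DMSO. The log2 values were computed by RMA, which sets the arrays to 1 common distribution. A level of one gene cannot be compared with that of another, because each row has its own probes. Albumin (Alb), the main product of hepatocytes, was at 15.19 ± 0.05 in CsA and 15.29 ± 0.01 in DMSO (SD, n = 3 each), at the top of the scale, which ran from 2.44 to 15.3. Array medians lay between 6.70 and 6.78, and arrays correlated at 0.990 to 0.997 within groups and 0.969 to 0.981 between groups.

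In CsA cultures the inhibitor gene Ptpn14 was 10.5-fold higher than in DMSO cultures, while the target genes Ccn2 and Ccn1 were 4.73-fold and 1.38-fold lower. The inhibitor genes did not move as 1 group, because Wwc1 was 2.04-fold and Amotl2 1.75-fold lower, and Lats1 and Lats2 overlapped between groups. Yap1, Wwtr1 and Tead1 stayed within 1.25-fold. Among 16 further YAP and TAZ target genes, 6 fell and 1 rose, and the 60 measured genes of the rest of the pathway changed at a share near that of all rows. In the limma fit over all rows, with Benjamini-Hochberg adjustment and an adjusted p under 0.05 as the threshold, 18.6% of rows passed. Of the 10 genes 5 passed, 1 higher beside 9.55% of all rows and 4 lower beside 9.05%. The groups did not overlap for 7 of the 10 genes, against 35.1% of all rows, with CsA higher for 2 of them (19.8% of all rows) and lower for 5 (15.3% of all rows). Since the genes were chosen with this contrast in view, nothing is read from these counts.

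**Figure D1:**
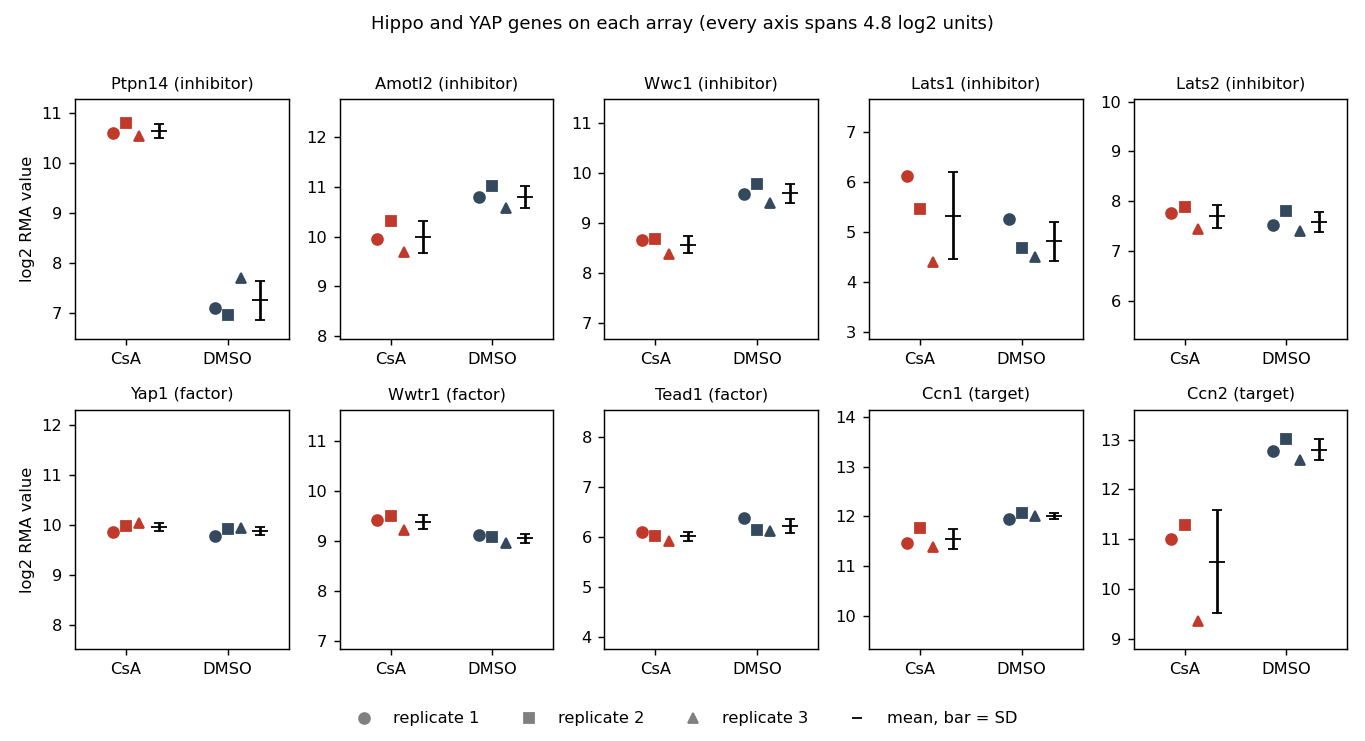
Log2 RMA values of the 10 genes on each array, CsA left and DMSO right in each panel, with 1 marker shape per replicate number and the mean ± SD (n = 3) beside the points. The Ptpn14 groups lie far apart with CsA high, Ccn2, Wwc1, Amotl2 and Ccn1 lie lower in CsA, and the Yap1, Lats1 and Lats2 groups overlap.

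TEAD proteins recognise the letters CATTCC, which read GGAATG on the other strand. The promoter windows of RefSeq (build GRCm38.p6, 250 bases before to 50 after each annotated start) were searched for these letters on both strands, with no other motif. Windows were matched for 8 of the 10 genes, all but Tead1 and Ccn2. The letters stood in a window of 6 of the 8, Ptpn14, Amotl2, Ccn1, Yap1, Wwtr1 and Lats2. They were not in the windows of Lats1 and Wwc1. Counted by gene in the same way, they stood in 16.6% of all 27025 genes in the table. The share was 15.3% of the array rows with a window, and 14 of 47 (29.8%) of the other pathway genes described below. Counted by window, it was 14.7% of all 32851. The stretches around the letters follow, because these genes include both the 10.5-fold higher Ptpn14 and genes with lower or nearly equal values in CsA. Each reads 5′ to 3′ on the strand of its gene, with the searched letters in capitals.
Ptpn14, chr1:189728062-189728187, plus strand: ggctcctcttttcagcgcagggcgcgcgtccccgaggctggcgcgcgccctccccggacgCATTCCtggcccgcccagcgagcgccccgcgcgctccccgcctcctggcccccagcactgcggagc
Amotl2, chr9:102717679-102717803, plus strand: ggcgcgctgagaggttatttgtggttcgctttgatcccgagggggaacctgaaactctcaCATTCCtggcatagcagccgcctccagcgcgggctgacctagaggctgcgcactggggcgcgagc
Ccn1, chr3:145650023-145650148, minus strand: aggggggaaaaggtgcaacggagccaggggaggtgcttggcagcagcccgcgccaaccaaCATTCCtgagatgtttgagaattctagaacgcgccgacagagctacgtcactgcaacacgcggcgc
Yap1, chr9:8004672-8004797, minus strand: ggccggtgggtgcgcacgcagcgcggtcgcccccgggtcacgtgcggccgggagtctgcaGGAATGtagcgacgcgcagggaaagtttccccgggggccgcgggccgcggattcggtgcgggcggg
Wwtr1, chr3:57575981-57576106, minus strand: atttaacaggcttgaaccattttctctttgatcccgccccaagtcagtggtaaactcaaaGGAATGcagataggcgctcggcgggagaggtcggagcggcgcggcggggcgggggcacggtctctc
Lats2, chr14:57746102-57746131, minus strand: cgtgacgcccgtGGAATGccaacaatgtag
The letters began 146 bases before the annotated start in Ptpn14, 65 in Amotl2, 103 in Ccn1 and 141 in Yap1. In Wwtr1 they began 136 or 170 bases before the start, depending on which of its 2 annotated starts is taken. In Lats2 they lay just after 1 of 2 starts and were not in the window of the other. A match is a description of these letters and is not a measured binding site.

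Ptpn14 encodes a tyrosine phosphatase that binds YAP, helps to keep it in the cytoplasm and supports LATS activity. Its values were 10.60, 10.80 and 10.54 in CsA cultures and 7.11, 6.96 and 7.70 in DMSO cultures. All 3 CsA arrays thus lay far above all 3 DMSO arrays, and the spread within CsA was the smaller. The means were 10.65 ± 0.14 in CsA and 7.25 ± 0.39 in DMSO (SD, n = 3 each), a difference of 3.40 ± 0.19 (log2, moderated SE). This was above 99.97% of the differences of all rows. The differences of same-numbered arrays were 3.49, 3.85 and 2.85 for replicates 1, 2 and 3, and the difference stayed between 3.25 and 3.62 with each array left out in turn. Ptpn14 belongs to a set of YAP and TAZ targets known from human cancer cells, where the factors raise it. Here it lay opposite to Ccn1 and Ccn2.

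Amotl2 encodes an angiomotin-like scaffold that binds YAP at junctions and is known as a YAP target too. It was at 9.96, 10.32 and 9.69 in CsA and 10.80, 11.01 and 10.57 in DMSO, so the groups did not overlap but lay close to each other. The difference was -0.80 ± 0.18. Wwc1 encodes KIBRA, a scaffold that works with NF2 to activate the LATS kinases. Its values of 8.65, 8.67 and 8.37 in CsA lay below those of 9.59, 9.78 and 9.40 in DMSO, a difference of -1.03 ± 0.14. Within same-numbered arrays Wwc1 differed by -0.94, -1.11 and -1.03 and Amotl2 by -0.84, -0.69 and -0.88. Because the groups of neither gene overlapped, any pairing of the arrays would show lower values in CsA. With each array left out in turn the difference of Amotl2 lay between -0.97 and -0.65.

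Lats1 and Lats2 encode the kinases that phosphorylate YAP and TAZ. Lats1 was at 6.12, 5.46 and 4.39 in CsA and 5.25, 4.68 and 4.50 in DMSO. The widest spread among the inhibitor genes was that of Lats1 in CsA, where replicate 3 lay below every DMSO array. The difference was 0.51 ± 0.39, and 0.98 without CsA replicate 3. Lats2, also a YAP target in other cells, was at 7.76, 7.88 and 7.45 in CsA and 7.53, 7.81 and 7.41 in DMSO. Those groups overlapped, with a difference of 0.12 ± 0.15. Over the 5 inhibitor genes the median difference was 0.12 and the range -1.03 to 3.40, against a median of -0.20 and a range of -2.24 to 0.32 over the 5 factors and targets, while the median of all rows was 0.035.

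The coactivator genes differed little. Yap1 was at 9.87, 9.98 and 10.04 in CsA and 9.78, 9.92 and 9.94 in DMSO, a difference of 0.085 ± 0.106 with overlapping groups. Wwtr1, which encodes TAZ, was at 9.42, 9.50 and 9.22 in CsA and 9.13, 9.09 and 8.96 in DMSO. The CsA arrays all lay above the DMSO arrays by a small margin, a difference of 0.32 ± 0.12. Tead1, one of the DNA-binding partners, was at 6.10, 6.03 and 5.91 in CsA and 6.38, 6.15 and 6.12 in DMSO. It was lower in CsA without overlap, with a difference of -0.20 ± 0.12.

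Ccn2 encodes connective tissue growth factor, a secreted matrix-associated protein, and is a widely used readout of YAP and TEAD. Its values were 11.00, 11.28 and 9.37 in CsA and 12.77, 13.02 and 12.59 in DMSO. All CsA arrays lay below all DMSO arrays, and replicate 3 lay far below the other CsA arrays. The means were 10.55 ± 1.03 in CsA and 12.79 ± 0.21 in DMSO (SD, n = 3 each), a difference of -2.24 ± 0.42. Without CsA replicate 3 the difference was -1.65. Ccn1, which encodes the related protein CYR61, was at 11.46, 11.78 and 11.40 in CsA and 11.95, 12.07 and 12.02 in DMSO. The groups did not overlap, with a difference of -0.47 ± 0.13, which lay between -0.59 and -0.40 with each array left out in turn. In same-numbered arrays Ccn1 differed by -0.49, -0.30 and -0.62 and Ccn2 by -1.77, -1.74 and -3.22.

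**Figure D2:**
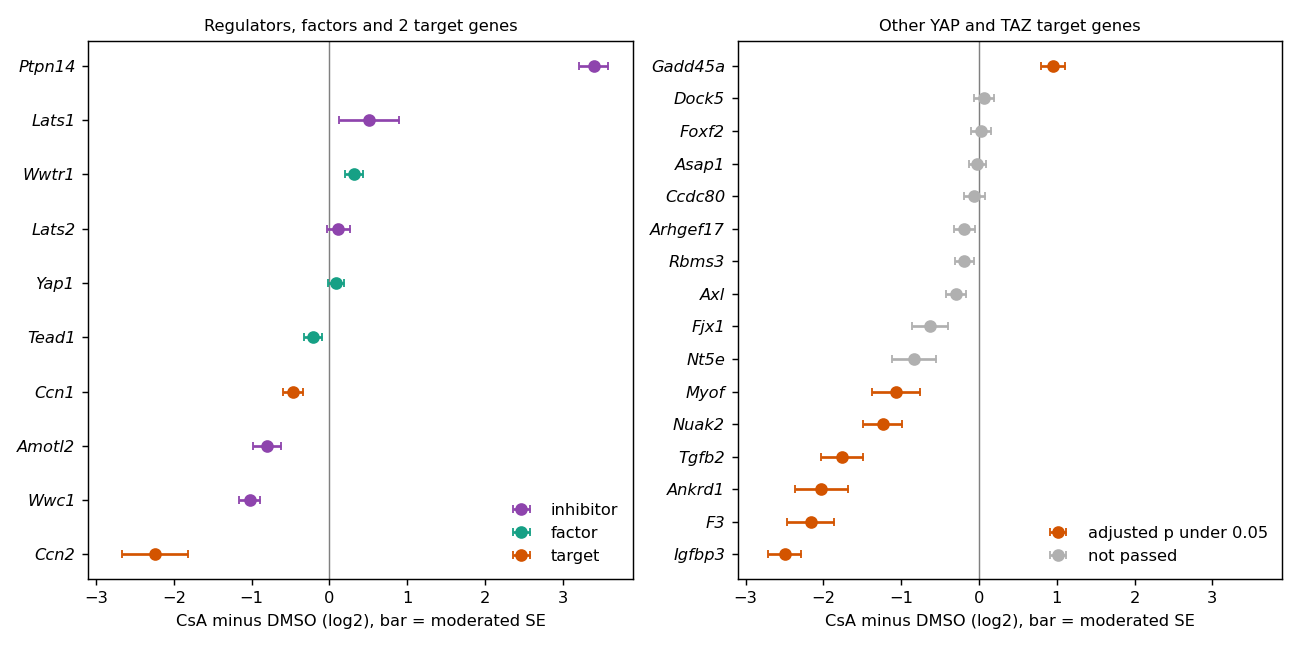
CsA minus DMSO in log2 units, with bars of 1 moderated SE, for the 10 genes by role (left) and for 16 other YAP and TAZ target genes (right), 3 arrays per group. Ptpn14 stands alone on the right at 3.40, and the lowest differences are those of Ccn2 at -2.24 and Igfbp3 at -2.50.

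The other target genes were taken from a set of YAP and TAZ targets known from human cancer cells, without the 5 genes already described. Of 17 listed genes 16 were measured, and 6 fell (37.5%, beside 9.05% of all rows), 1 rose (beside 9.55%) and 9 did not pass. Their median difference was -0.46, against 0.035 over all rows. With the replicate block 7 fell, beside 12.9% of all rows, and 1 rose. Igfbp3, which encodes a binding protein of insulin-like growth factors, was at 5.43, 5.85 and 5.82 in CsA and 8.50, 7.70 and 8.40 in DMSO. The groups were widely separated, and Igfbp3 fell by 2.50 ± 0.22 on the log2 scale, 5.65-fold (limma adjusted p = 0.000185).

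F3 encodes tissue factor, which starts coagulation, and was at 7.79, 7.84 and 6.73 in CsA and 9.77, 9.88 and 9.20 in DMSO. Ankrd1 encodes an ankyrin repeat protein of the nucleus and sarcomere, and was at 8.01, 8.17 and 6.81 in CsA and 9.94, 9.88 and 9.25 in DMSO. Tgfb2 encodes a secreted transforming growth factor, and was at 7.76, 7.70 and 6.84 in CsA and 9.21, 9.57 and 8.81 in DMSO. For all of F3, Ankrd1 and Tgfb2 the groups did not overlap, and replicate 3 was the lowest array in CsA and in DMSO, as it was for Ccn2. F3 fell 4.49-fold (-2.17 ± 0.30, limma adjusted p = 0.00169), Ankrd1 4.08-fold (-2.03 ± 0.34, limma adjusted p = 0.00423) and Tgfb2 3.39-fold (-1.76 ± 0.27, limma adjusted p = 0.00267). Nuak2, which encodes a kinase of the AMPK family, fell 2.36-fold (-1.24 ± 0.25, limma adjusted p = 0.00955). Gadd45a, a stress gene, went the other way. It was at 11.98, 12.05 and 11.96 in CsA and 10.73, 11.11 and 11.30 in DMSO, and rose 1.94-fold (0.95 ± 0.15, limma adjusted p = 0.0031). These 6 genes kept their calls with each array left out in turn.

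**Figure D3:**
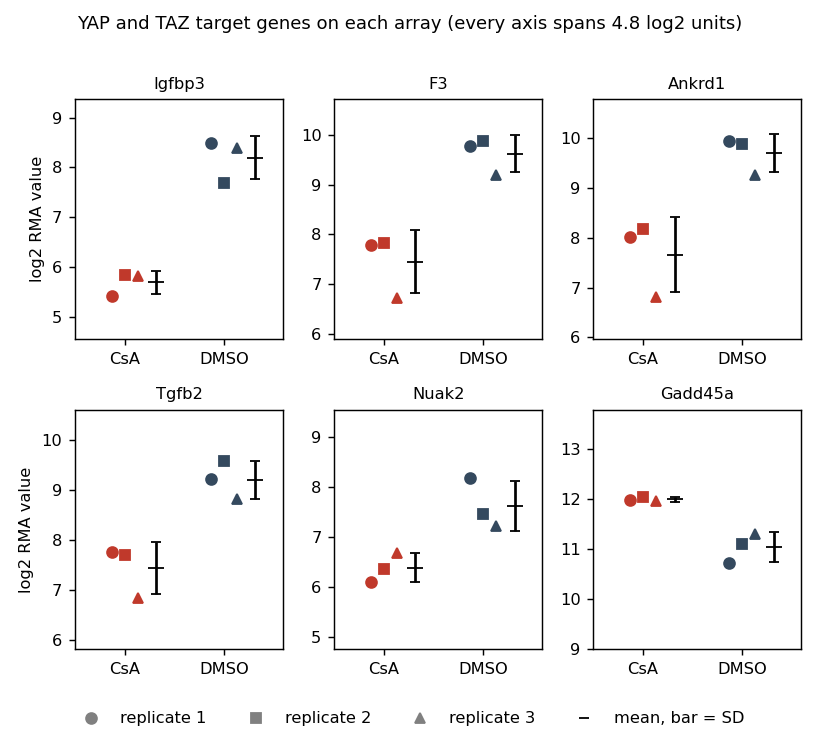
Log2 RMA values of 6 YAP and TAZ target genes past the threshold on each array, CsA left and DMSO right, with the mean ± SD (n = 3) beside the points. Igfbp3, F3, Ankrd1, Tgfb2 and Nuak2 lie lower in CsA and Gadd45a lies higher, with no overlap between groups in any panel.

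The RefSeq windows of 10 of the 16 target genes were matched, and CATTCC or GGAATG stood in those of 2, Ankrd1 and Axl, against 16.6% of all genes in the table. Ankrd1 held the letters at 210 and at 123 bases before its annotated start. The stretch around the letters nearer to the start is shown because Ankrd1 is a widely used YAP readout and fell with Ccn2.
Ankrd1, chr19:36119902-36120027, minus strand: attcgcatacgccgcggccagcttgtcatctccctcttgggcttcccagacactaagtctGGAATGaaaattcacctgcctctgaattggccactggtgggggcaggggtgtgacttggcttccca
The windows of Igfbp3, F3 and Tgfb2 did not hold the letters.

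Genes were ranked by the root mean square distance between values over the 6 arrays, each gene centred on its own mean. The search covered the 15136 named rows without the 10 genes themselves. The nearest to Ccn2 were Ankrd1 (distance 0.25), F3 (0.27) and Thbs1 (0.28). Thbs1, which encodes thrombospondin-1, was at 6.05 ± 1.21 in CsA and 8.07 ± 0.52 in DMSO (SD, n = 3 each), a difference of -2.02 ± 0.53. The nearest to Ptpn14 were Pate14 (0.13), Fam171b (0.20) and Rsad2 (0.30), with differences of 3.26, 3.50 and 3.87. These distances describe 2 groups of 3 arrays, and carry no test.

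In the 4 lists of other pathway genes, which cover kinases, scaffolds, turnover and nuclear partners, 60 of 69 were measured, and 7 rose, 4 fell and 49 did not pass. The 11 are 18.3% of the 60, near the 18.6% of all rows, and the median difference of the 60 was 0.059, against 0.035 over all rows. With the replicate block 19 changed, 11 higher (beside 15.8% of all rows) and 8 lower (beside 12.9%), and 28.7% of all rows changed in that fit. Leaving out 1 CsA array gave 3, 1 and 12 changed genes for replicates 1, 2 and 3, and leaving out 1 DMSO array gave 2, 4 and 9.

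Of 19 upstream and core kinase genes 2 rose and 1 fell, beside 9.55% and 9.05% of all rows. With the block 4 rose and 4 fell, beside 15.8% and 12.9% of all rows. Map4k4, which encodes a kinase that can phosphorylate LATS, rose by 0.56 ± 0.14 (limma adjusted p = 0.0247). Stk4, which encodes the core kinase MST1, was at 9.66, 9.74 and 9.73 in CsA and 9.30, 9.30 and 9.39 in DMSO, a narrow and separated pair of groups, and rose by 0.38 ± 0.10 (limma adjusted p = 0.0278). Rassf5, which encodes a partner of MST1, fell by 0.56 ± 0.12 on the log2 scale (limma adjusted p = 0.0112). Of 15 genes that act as brakes on the Hippo kinases 2 rose and 0 fell in limma, with the block too. They were Sike1 (0.41 ± 0.11) and Strn4 (0.37 ± 0.10), both of the phosphatase complex STRIPAK, which removes phosphate from MST1 and its relative. Map4k4, Stk4 and Strn4 lost their calls without CsA replicate 1 or 2 or DMSO replicate 1 or 2. Sike1 lost its call without CsA replicate 1 or 2 or DMSO replicate 1 or 3, and Rassf5 without CsA replicate 2 or DMSO replicate 2.

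Of 19 genes of YAP retention, polarity and turnover 2 rose and 2 fell, beside 9.55% and 9.05% of all rows. With the block 4 rose and 2 fell, beside 15.8% and 12.9% of all rows. Csnk1e, which encodes casein kinase 1 epsilon, one of the kinases that mark YAP for degradation, rose by 0.76 ± 0.14 (limma adjusted p = 0.00584), and Fbxw11, a subunit of a ubiquitin ligase for YAP, by 0.33 ± 0.10 (limma adjusted p = 0.0453). Amot, the angiomotin related to Amotl2, fell by 0.41 ± 0.11 on the log2 scale, and Patj, which encodes a polarity scaffold, by 0.47 ± 0.10.

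Of 7 nuclear partners 1 rose and 1 fell, beside 9.55% and 9.05% of all rows. With the block 1 rose and 2 fell, beside 15.8% and 12.9% of all rows. Tead2, a relative of Tead1, was at 8.42, 9.15 and 7.39 in CsA and 7.15, 7.26 and 6.38 in DMSO. Each CsA array lay above each DMSO array, and replicate 3 was the lowest array in both groups. Tead2 rose 2.62-fold (1.39 ± 0.41, limma adjusted p = 0.0457), with an adjusted p of 0.00103 in the limma fit with the block, and missed the threshold without CsA replicate 1 or 2 or any 1 of the DMSO arrays, and with a robust prior variance. Vgll3, a cofactor of TEAD proteins, fell by 0.46 ± 0.10 on the log2 scale (limma adjusted p = 0.0135), at 3.09 ± 0.04 in CsA and 3.55 ± 0.06 in DMSO (SD, n = 3 each), near the bottom of the scale.

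**Figure D4:**
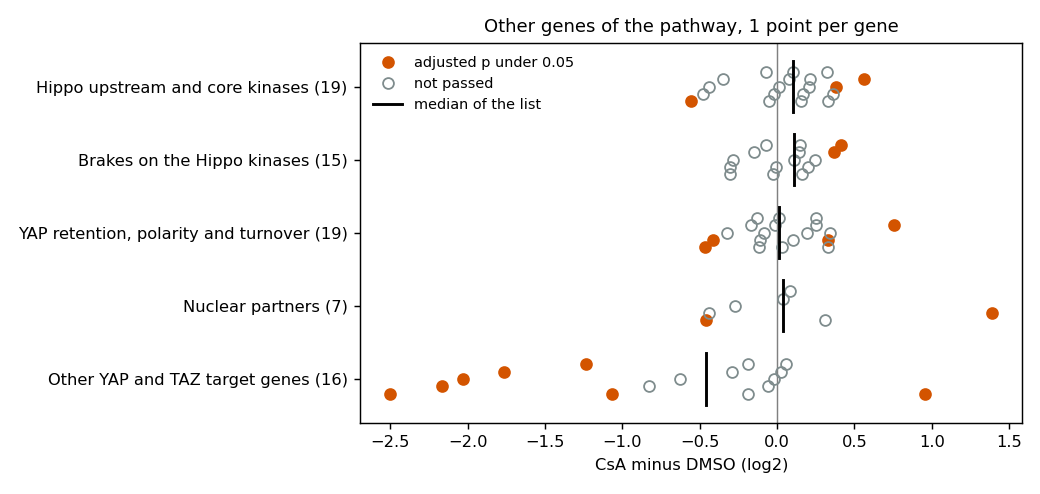
Differences between CsA and DMSO on the log2 scale for the other genes of the pathway, 1 point per measured gene, by list, with the median of each list as a vertical line. The medians of the 4 regulator lists lie near 0, and that of the target genes lies at -0.46.

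YAP is known to raise genes of bile duct cells in mouse hepatocytes. Of 7 measured genes of that kind 2 fell, 0 rose in limma and 5 did not pass, and 3 fell with the block (median -0.28). Over all rows 9.05% fell, and 12.9% with the block. Jag1, which encodes a Notch ligand, fell by 1.03 ± 0.28 on the log2 scale (limma adjusted p = 0.034), and missed the threshold when any array other than DMSO replicate 3 was left out. Sox9, which encodes a factor of duct cells, was at 5.84, 6.00 and 5.72 in CsA and 6.59, 6.53 and 6.22 in DMSO. Its groups did not overlap, and it fell by 0.59 ± 0.13 on the log2 scale (limma adjusted p = 0.0167), a call lost without CsA replicate 1, DMSO replicate 1 or DMSO replicate 2.

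Ccn2, Ankrd1, Tgfb2 and other target genes are also expressed by the other cells that a hepatocyte preparation can hold, and fewer cells of a type and less RNA per cell cannot be told apart in these arrays. The counts of markers below stand beside 9.05% of all rows lower (12.9% with the block) and 9.55% higher, and each sum adds the same probes on every array and is read between groups only. Of 15 stellate cell and fibroblast markers 2 fell and 0 rose (5 fell with the block), with the summed linear signal at 1209 to 2887 in CsA and 1662 to 3797 in DMSO. Vim, a filament gene named after its values were seen, made up 59.1% to 84.1% of that sum in CsA and 63.2% to 81.6% in DMSO. Without Vim the sums were 460.2 to 513.6 in CsA and 611.7 to 960.7 in DMSO and did not overlap. Because Vim was left out after its values were seen, this sum is no test of a shared fall. Of the 15 markers 13 did not pass. Tagln and Acta2, which encode contractile proteins, fell by 1.20 ± 0.30 and 1.18 ± 0.28 on the log2 scale, calls that both lost without CsA replicate 1, CsA replicate 2 or DMSO replicate 2 and Tagln also without CsA replicate 3. Lrat, a defining gene of quiescent stellate cells, was at 3.18 ± 0.09 in CsA and 3.21 ± 0.06 in DMSO (SD, n = 3 each), near the bottom of the scale. Of 11 sinusoidal endothelial markers 1 rose (Oit3, 0.67) and 2 fell (Fcgr2b, -0.72, and Stab2, -0.52), with sums of 638 to 696 in CsA and 618 to 826 in DMSO. Of 10 Kupffer cell markers 1 fell (Vsig4, -0.70) and 0 rose, with sums of 273 to 304 in CsA and 289 to 386 in DMSO. Of 7 lymphocyte markers 0 changed in limma, also with the block, none at an unadjusted p under 0.05, and sums were 147 to 186 in CsA and 147 to 175 in DMSO. RMA values are never 0, so no marker is at 0. Hepatocyte markers moved further, with 6 of 8 lower (7 with the block), a median of -0.92 and sums of 86441 to 100177 in CsA and 129210 to 141522 in DMSO. Among them were Serpina1a (-2.03), Hnf4a (-1.73), Apob (-1.57), Apoa1 (-0.99) and Ttr (-0.58). The part of these cell types in the differences of the target genes was not tested.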

How the data were processed

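The deposited table holds log2 expression values, which the authors summarised by RMA under R 2.11.0 according to the deposited processing notes. Array type, probe set definition and genome build are not given in the sources used here. A platform table of gene symbols named 15136 of 16331 rows, with several symbols for 0 rows. No detection call entered the work, and the number of arrays, 3 in each group, limits the precision.

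Groups came from the sample titles. CsA minus DMSO was fitted with limma 3.58.1 (R 4.3.3), using lmFit and eBayes with no covariate. Tests were two-sided, with Benjamini-Hochberg adjustment across every row and a threshold of 0.05. The fit was tested on simulated data with 200 changed rows, at the same threshold. It recovered 79% of the changes of 1 log2 unit and 96% of those of 2. Of the rows called there, 6.42% had not been changed. The simulated noise was independent between rows and arrays, and far fewer rows were changed than the 3037 called in the data. These rates are therefore not those of the real comparison. Genes and lists were chosen with earlier results of these data known. Named from each of 11 lists were up to 5 changed genes per direction, or, where none passed, 2 with the smallest adjusted p, plus the 3 nearest patterns to the highest and the lowest of the 10 genes. Some listed genes were not analysed here.

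Both groups carry replicate numbers 1 to 3. Deviations from the group means correlated at 0.398, 0.242 and 0.499 between same-numbered arrays. Between arrays with different numbers, CsA 1 and DMSO 2 correlated at 0.221 and CsA 2 and DMSO 1 at 0.040. The others lay at -0.496 to -0.203. The arrays numbered 3 thus deviated alike, while numbers 1 and 2 were told apart less clearly. Deviations cancel out within a group, so these correlations are not independent of each other. On these same values, same-numbered arrays were taken as pairs, and a replicate block was added to the model as an alternative. The titles, with 1 prefix for all CsA arrays and 3 for the DMSO arrays, do not state such pairing. Other alternatives were a trended or robust prior variance, array weights, renormalization, filters on dim rows, a threshold of 0.01 and leaving out arrays. Promoter sequences are those of RefSeq, build GRCm38.p6.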

Additional observations from a re-analysis of the deposited data

How the results depend on the processing

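With the replicate block 4686 rows changed, and with array weights 5190, against 3037. At an adjusted p under 0.01 there were 1509 rows, 3 of the 10 genes (2 lower) and 1 of the 60 pathway genes. Without 1 array in turn, changed rows ranged from 1738 to 3219, changed genes among the 10 from 3 to 6 (1 to 3 higher, 2 to 4 lower), changed pathway genes from 1 to 12, and lower target genes from 5 to 7. Among the 10 genes 2 were higher with the replicate block, with array weights and with both arrays numbered 3 left out, an alternative chosen after seeing the data. Pathway genes numbered 19 with the block, 24 with array weights and 17 without both arrays numbered 3. For the 10 genes 148 of 148 repeated differences moved by less than 1 SD of the replicates. The replicate block, the prior variances and the filters cannot move a difference. Leaving out 1 of 3 arrays moves it by only part of an SD, so this count says nothing of the calls. Ccn1 missed the threshold of 0.05 without CsA replicate 1 or 3, any 1 of the DMSO arrays or both arrays numbered 3. It also did so with array medians set equal. Amotl2 missed it without CsA replicate 1 or DMSO replicate 2. Of the genes named from lists, 390 repeats kept direction and side of the threshold, 105 lost the call and 4 turned. Those 4 concern lymphocyte markers that did not pass, Ptprc (0.014 without DMSO replicate 1, and -0.43 to 0.014 over the single arrays left out) and Nkg7 (-0.020 with array weights, -0.012 without CsA replicate 3 in a range of -0.012 to 0.26, and -0.055 without both arrays numbered 3). The cause was not tested, except that fewer arrays give fewer degrees of freedom. Of the genes named from lists or as other observations, the replicate block changed the call of Vim, which did not pass without it. Values near the top or bottom of the RMA scale are compressed, which limits Vgll3, Lrat and Alb.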

Other observations

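Among the CsA arrays replicate 3 had the lowest value for 9 of the 10 genes, against 30.8% of all rows, and among the DMSO arrays replicate 3 had the lowest value for 7 of the 10, against 28.4% of all rows. For the 16 other target genes these counts were 8 (50%) and 6 (37.5%). Genes read on the same array are not independent, and the 10 were chosen on these arrays, so nothing is read from these counts. Vim, a filament gene of mesenchymal cells that was not named by the rule and was chosen after its values were seen, showed the same order, at 10.83, 11.24 and 9.48 in CsA and 11.47, 11.49 and 10.04 in DMSO, a difference of -0.48 ± 0.50 that did not pass.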
